A study of Mus musculus with 12 samples.

Results

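Described here are 35 genes of the unfolded protein response and the amino acid stress response in mouse liver, out of 18193 genes measured. They were chosen by name, with earlier results of these data known. They comprise 5 sensors and transcription factors, 14 genes of the ATF4 arm, 13 of the ATF6 arm and 3 of the XBP1 arm. Each gene was read from the probe set that carries its name alone and, where several did, from the one with the highest mean over the 12 arrays. All 35 genes had such a probe set.

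Total RNA of liver was hybridised to 12 Affymetrix GeneChip mouse arrays, 4 in each of 3 groups. All mice were C57Bl/6 at 3 months of age. The first group was wild type with no agent, the second carried Atp7b-/- with no agent, and the third carried Atp7b-/- and received supplemental zinc. Atp7b encodes the copper-transporting ATPase that loads copper onto ceruloplasmin and exports it into bile, and its loss is the genetic cause of Wilson disease. No wild type mouse received zinc. The sources used here do not give the allele, the dose and duration of zinc or the sex of the mice. The labels state that zinc was given to 4 mutant mice but do not state for the other groups that each array is a separate animal, so the p-values measure the spread between these arrays, which may in part be technical.

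When unfolded proteins collect in the endoplasmic reticulum (ER), the sensors IRE1 (Ern1), PERK (Eif2ak3) and ATF6 signal to the nucleus. PERK, and the kinase GCN2 when amino acids are scarce, phosphorylate eIF2alpha, which favours translation of ATF4, an activator of amino acid synthesis, transport and tRNA charging genes. ATF6 is released by cleavage and raises ER chaperones, while IRE1 splices the Xbp1 mRNA and so gives a factor that raises ER-associated degradation (ERAD) and secretory genes. The liver secretes much of the plasma protein and meets large swings in amino acid supply, so both responses are known there.

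The DNA elements that these arms are known to use are shown first, since the arms are known to act through them. RefSeq promoters (GRCm38.p6, 250 bases before to 50 after the start) were found for 30 of the 35 genes; Atf6, Manf, Hyou1, Eif4ebp1 and Slc7a5 had no entry. Both strands were searched for the ER stress element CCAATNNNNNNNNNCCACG, its variant ERSE-II ATTGGNCCACG, the unfolded protein response element TGACGTGG and the C/EBP-ATF response element TGATGNAA. The first 3 share letters, since CCACG is the reverse complement of the CGTGG in the third. Capitals mark the match, written 5′ to 3′ on the gene's own strand. In the ATF4 arm, 3 genes carry the C/EBP-ATF element before the start, at chr6:7693210-7693252 (minus strand) for Asns, chr7:126625553-126625600 (minus) for Nupr1 and chr2:119351029-119351076 (plus) for Chac1; the last 2 read as its reverse complement:
Asns: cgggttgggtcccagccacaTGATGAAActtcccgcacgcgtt
Nupr1: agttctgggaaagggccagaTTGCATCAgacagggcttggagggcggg
Chac1: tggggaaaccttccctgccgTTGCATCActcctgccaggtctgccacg

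The ER stress element was matched in Hspa5 at chr2:34772005-34772063 (plus), Dnajc3 at chr14:118937807-118937865 (plus) and Creld2 at chr15:88819500-88819558 (plus, as the reverse complement), and ERSE-II in Herpud1 at chr8:94386357-94386407 (plus). These 4 were picked after their array results were seen. Dnajc3, Creld2 and Herpud1 passed the test described below as lower in Atp7b-/-, and Hspa5 did not. The other genes with the ER stress element, Hsp90b1, Calr, Canx and Pdia6, did not pass it either and are not shown. Herpud1 carries the variant, and also a C/EBP-ATF element outside the window shown. The 4 windows are:
Hspa5: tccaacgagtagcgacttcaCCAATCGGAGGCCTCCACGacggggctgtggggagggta
Dnajc3: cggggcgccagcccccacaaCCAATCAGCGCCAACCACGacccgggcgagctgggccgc
Creld2: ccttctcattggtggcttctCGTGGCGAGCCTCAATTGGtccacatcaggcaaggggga
Herpud1: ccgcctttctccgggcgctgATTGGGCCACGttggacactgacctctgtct

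The ER stress element was present in 6 of 11 ATF6 arm promoters (Hspa5, Hsp90b1, Calr, Canx, Pdia6 and Creld2), in 1 of 3 XBP1 arm promoters and in 0 of 12 ATF4 arm promoters, against 0.119% of all 32851 promoters in the table. The C/EBP-ATF element was present in 4 of 12 ATF4 arm promoters, Trib3 being the fourth with its match after the start, and in Herpud1 among the ATF6 arm, against 3.97% of all promoters. ERSE-II stood in Herpud1 (0.0365% of all promoters), and the unfolded protein response element (0.676%) in none of the 30 genes. A match is a description of letters in this window, and a promoter without a match shows only that these letters are not in it.

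The values, log2 intensities, ran from 2.22 to 15.24 and had array medians of 5.63 to 5.71. The Atp7b probe set read 8.51 to 8.69 in wild type, 6.91 to 7.25 in Atp7b-/- and 6.57 to 6.98 in zinc-treated Atp7b-/-, so that every mutant array lay below every wild type array, although the sources used here do not say whether that probe set covers the deleted part. The 9 hepatocyte markers measured (Alb, Ttr and Serpina1c among them) summed to 17.59 to 17.67 on every array. Zinc-treated replicates 2 and 3 carried pancreatic acinar transcripts, the mean of 14 acinar genes (Cela1, Cela3b and Prss2 among them) lying 4.00 and 1.14 log2 units above wild type, against -0.23 to 0.10 on the other arrays. Untreated Atp7b-/- replicate 1 correlated at a median r of 0.991 with the other arrays of its group, for which this value was 0.995; the arrays of the other 2 groups gave 0.992 to 0.993, so it stood apart only within its own group. The difference between 3′ and 5′ control probe sets was 0.79 to 0.88 in Atp7b-/-, 0.62 to 0.78 in wild type and 0.54 to 0.74 with zinc, so in the untreated mutants this sign of RNA quality cannot be told apart from the group. Of 11 macrophage markers (Csf1r, Cd5l and Clec4f among them), 7 were lower in Atp7b-/- than in wild type, with a median of -0.67, and of 6 endothelial markers 3 were lower. Of 6 plasma cell markers 1 was higher and 1 lower, of 5 cholangiocyte markers 1 was higher, and limma called 0 of 9 hepatocyte, 0 of 14 acinar and 0 of 7 stellate cell markers (2, 0 and 1 at an unadjusted p under 0.05). With zinc against without, 2 of 7 stellate cell and 1 of 6 endothelial markers were higher and 1 of 9 hepatocyte and 1 of 6 plasma cell markers lower, and with zinc against wild type 1 of 6 endothelial markers was lower. In that last comparison limma called 0 of 11 macrophage markers, but all 11 lay below 0, with a median of -0.59 (8 at an unadjusted p under 0.05). The summed macrophage level was 12.16 to 13.10 in wild type, 11.69 to 12.64 in Atp7b-/- and 11.91 to 12.28 with zinc, and no macrophage marker lay at or below the lower quartile on all 12 arrays. The part of these differences in the results was not tested, and in whole liver fewer cells of a type and less RNA per cell cannot be told apart. A difference is called where limma's moderated test, adjusted by the Benjamini-Hochberg method over all 18193 genes, gave a p under 0.05.

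In Atp7b-/- liver without zinc, the called genes of the ATF4 arm went in both directions, and those of the ATF6 and XBP1 arms were all lower. Asparagine synthetase rose 8.33-fold, while the death-associated factor Ddit3 (CHOP) fell 2.36-fold and the ER genes Herpud1, Sdf2l1 and Creld2 fell 2.41-, 3.11- and 3.16-fold. Of the 35 genes, 14 were called, 4 higher and 10 lower, beside 24.6% of all genes called, 14.3% higher and 10.3% lower. The median change was -0.16 over the 35 genes and -0.05 over all genes. For 8 of the 35 the 4 mutant arrays did not overlap the 4 wild type arrays, beside 26.4% of all genes, a share near that of the list. By arm, 7 of 14 ATF4 arm genes (4 higher, 3 lower; median -0.07), 5 of 13 ATF6 arm genes (all 5 lower; median -0.27), 1 of 3 XBP1 arm genes (lower; median -0.49) and 1 of 5 sensors and factors (lower; median -0.41) were called. No difference between arms was tested. Without untreated replicate 1, 10 of the 35 were called (2 higher, 8 lower), and the ATF6 arm gave 3 calls with a median of -0.05. With the probe sets of each gene averaged, that arm gave 5 calls with a median of -0.43.

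**Figure D1:**
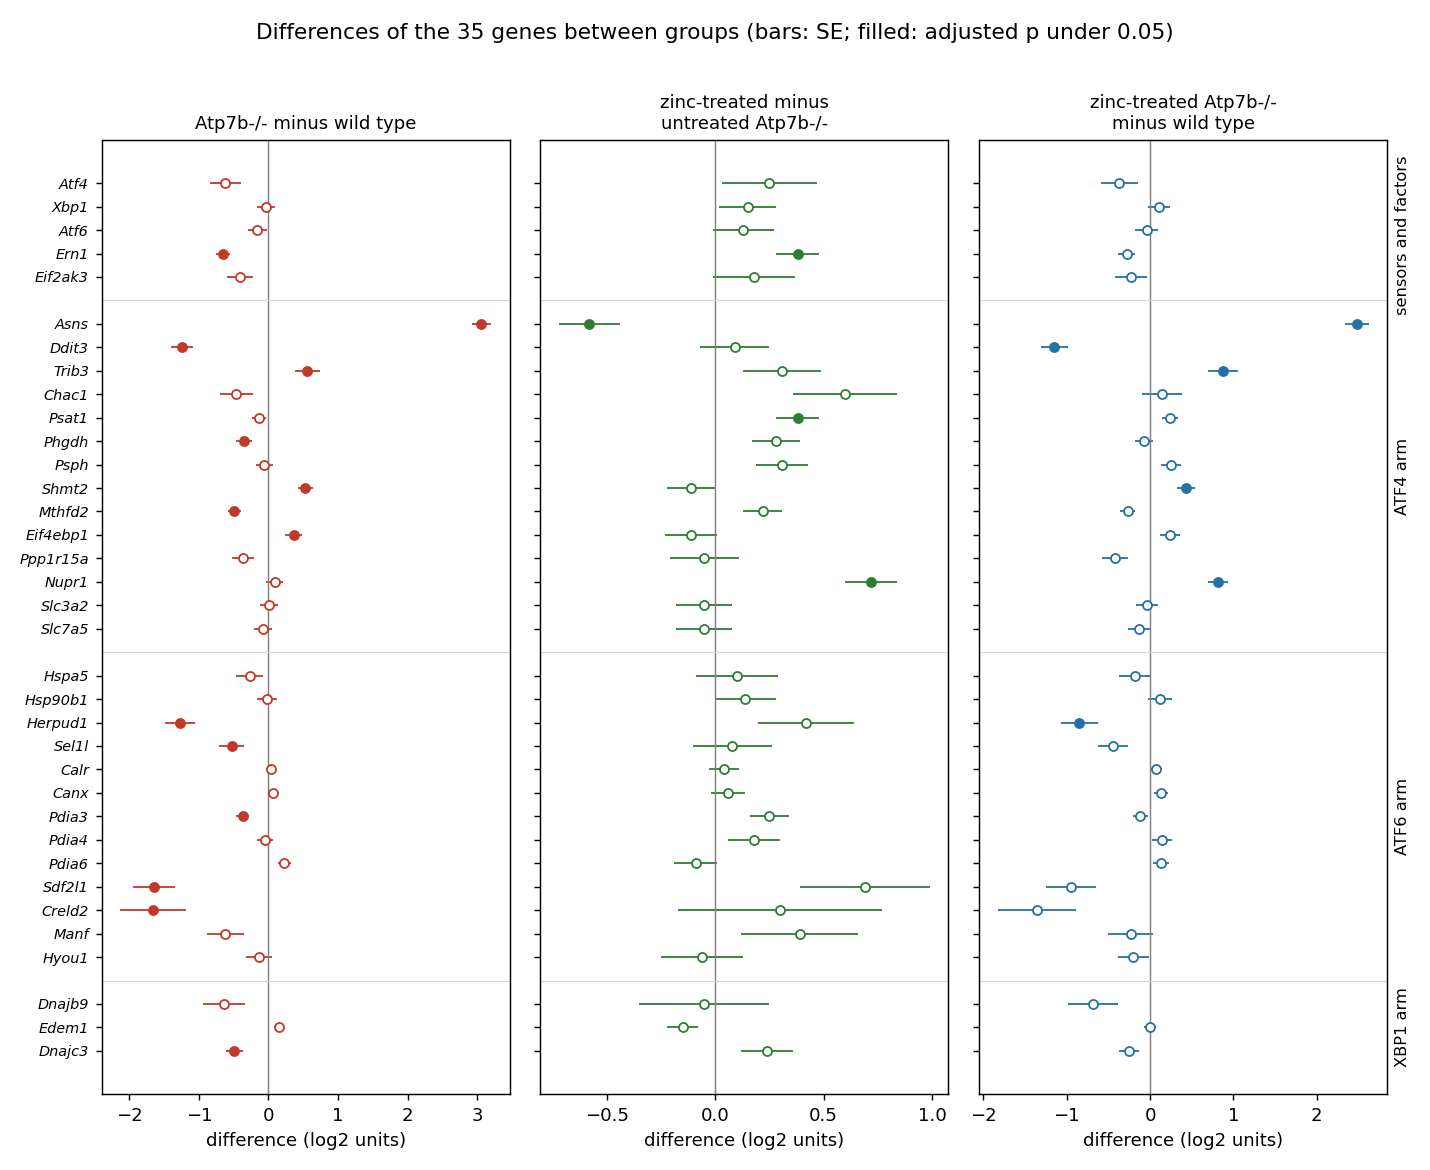
Difference between groups in log2 units (x axis) for each of the 35 genes (y axis), with 1 panel each for untreated mutants over wild type, zinc over no zinc in mutants, and zinc-treated mutants over wild type; bars are standard errors of the fit and filled points have an adjusted p under 0.05. Asns stands far to the right of wild type in both mutant groups (3.06 and 2.48), and the lowest points of the first panel are Ddit3, Herpud1, Sdf2l1 and Creld2.

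Asns, which makes asparagine from aspartate and glutamine, had the largest change of the 35 genes. It read 8.48, 8.26, 8.74 and 8.07 in wild type and 11.29, 11.53, 11.58 and 11.39 in Atp7b-/-. The groups were far apart, with means of 8.39 ± 0.29 and 11.45 ± 0.13 (SD, n = 4 each). The difference was 3.06 (SE 0.14, adjusted p = 4.43e-09), and its other probe set gave 3.32. The call held under every alternative tried, with differences from 2.95 to 3.19.

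The other genes of amino acid and one-carbon metabolism in the ATF4 arm went different ways. Shmt2, the mitochondrial enzyme that splits serine to glycine, read 10.83, 10.71, 10.79 and 10.98 in wild type and 11.22, 11.24, 11.49 and 11.48 in Atp7b-/-. The groups did not overlap, and the gene rose by 0.53 (SE 0.11, adjusted p = 0.00328). Mthfd2, the mitochondrial folate enzyme that acts on the one-carbon unit Shmt2 releases, read 6.84, 6.73, 7.05 and 7.11 in wild type and 6.48, 6.50, 6.43 and 6.35 in Atp7b-/-. Here too the groups did not overlap, but in the opposite direction: Mthfd2 fell by 0.49 (SE 0.09, adjusted p = 0.00165), and its other probe set gave -0.88.

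Phgdh, the entry enzyme of serine synthesis from glycolysis, read 7.89 to 8.28 in wild type and 7.68 to 7.88 in Atp7b-/- and fell by 0.35 (SE 0.11, adjusted p = 0.0397). This call was lost without wild type replicate 1 or 3 or Atp7b-/- replicate 2, 3 or 4 (adjusted p 0.0168 to 0.109 over the alternatives). Psat1 and Psph, which complete the same pathway, gave -0.14 (SE 0.10, adjusted p = 0.339) and -0.06 (SE 0.12, adjusted p = 0.728). The amino acid carrier subunits Slc3a2 and Slc7a5 gave 0.01 (SE 0.13) and -0.08 (SE 0.13). None of these 4 was called, and in each the arrays of the groups overlapped.

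Of the remaining genes of the ATF4 arm, Ddit3 fell, and Trib3 and Eif4ebp1 rose. Ddit3, the transcription factor linked to cell death under lasting ER stress, read 8.37, 8.77, 8.29 and 7.73 in wild type and 7.08, 6.98, 7.13 and 7.01 in Atp7b-/-. Every mutant array was below every wild type array, and the 4 mutant values were close together, with means of 8.29 ± 0.43 and 7.05 ± 0.07 (SD, n = 4 each). The difference was -1.24 (SE 0.16, adjusted p = 9.98e-05), ranged from -1.43 to -1.08 over the alternatives and was -1.08 at its other probe set.

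Trib3, a pseudokinase that restrains ATF4 and CHOP activity, read 5.36, 5.48, 5.45 and 6.01 in wild type and 6.52, 5.96, 5.93 and 6.11 in Atp7b-/-. Wild type replicate 4 lay among the mutant arrays, so the groups overlapped, and the rise of 0.56 (SE 0.18) had an adjusted p of 0.0418. That call was lost in 14 of 23 alternatives (adjusted p 0.0121 to 0.193 over all 23). Among them were those without wild type replicate 1, 2 or 3, without Atp7b-/- replicate 1, 2 or 4, and without zinc-treated replicate 3. The gene's other probe set gave 0.23, and the mean of both gave 0.39 (adjusted p = 0.0623), without a call. Eif4ebp1, the 4E-BP1 brake on cap-dependent translation, read 10.09 to 10.60 in wild type and 10.59 to 10.89 in Atp7b-/-, a rise of 0.36 (SE 0.12, adjusted p = 0.0436). It was lost in 15 of 24 alternatives, including those without wild type replicate 1 or 3, without Atp7b-/- replicate 1, 2 or 4, and without zinc-treated replicate 2 or 3 (adjusted p 0.0173 to 0.257), and the 3 probe sets of the gene gave 0.36, 0.24 and -0.15.

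Chac1, which degrades glutathione, gave -0.46 (SE 0.24, adjusted p = 0.177). Ppp1r15a (GADD34), the subunit that directs the phosphatase to eIF2alpha, gave -0.37 (SE 0.16, adjusted p = 0.112), and Nupr1, a small stress-induced chromatin protein, gave 0.09 (SE 0.12, adjusted p = 0.612). These 3 were not called. Ppp1r15a was called in 4 alternatives, each of which left zinc-treated replicate 3 out of the fit (adjusted p 0.0295 to 0.232 over all alternatives).

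**Figure D2:**
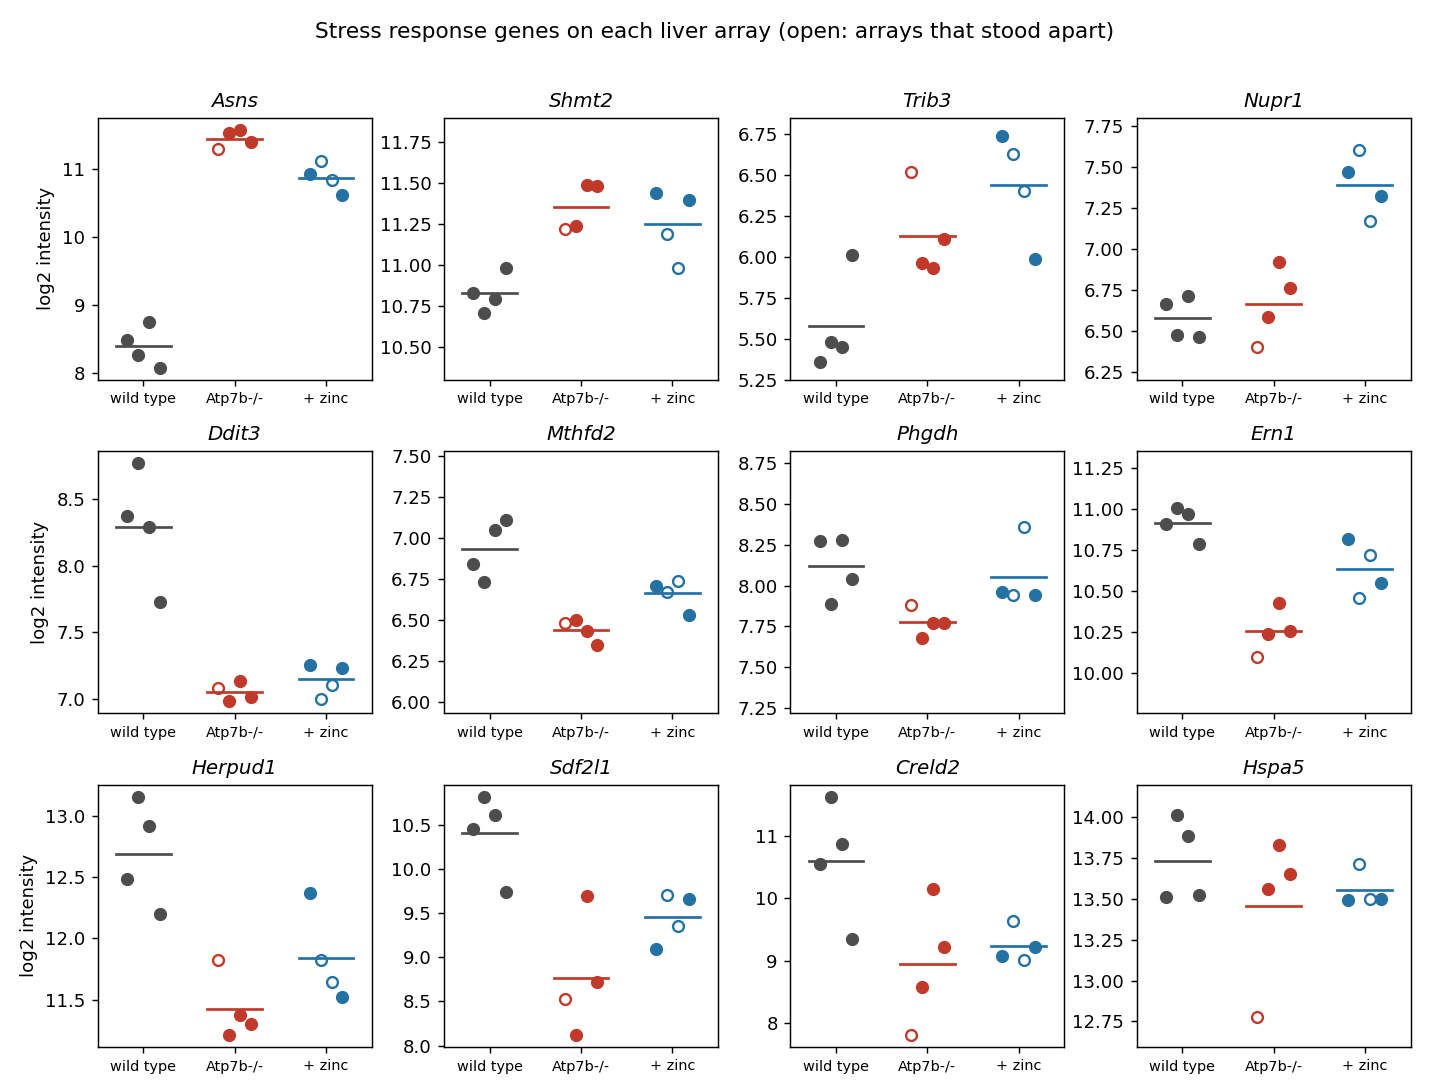
Log2 intensity (y axis; each panel has its own range) of 12 of the genes on each array of wild type, Atp7b-/- and zinc-treated Atp7b-/- liver; points are arrays, lines group means, and open points are untreated replicate 1 and zinc-treated replicates 2 and 3, which stood apart. Asns, Shmt2, Ddit3, Mthfd2, Phgdh, Ern1, Herpud1 and Sdf2l1 show no overlap between wild type and Atp7b-/-, while Hspa5 overlaps in all groups.

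Among the sensors and factors, Ern1 (IRE1) fell. It read 10.91, 11.01, 10.97 and 10.79 in wild type and 10.10, 10.24, 10.43 and 10.26 in Atp7b-/-. The groups did not overlap, and the difference was -0.66 (SE 0.10, adjusted p = 0.000252). Its other 4 probe sets gave -0.01 to -0.58.

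Atf4 itself read 11.32, 11.30, 11.38 and 11.41 in wild type and 9.95, 10.72, 11.37 and 10.88 in Atp7b-/-. The wild type arrays lay close together whereas the mutant arrays spread widely, and mutant replicate 3 lay at the wild type level. The difference of -0.62 (SE 0.22) missed the threshold at an adjusted p of 0.0519. It was called in 4 alternatives, among them quantile normalization, leaving out dim genes and leaving out Atp7b-/- replicate 3, and the adjusted p ranged from 0.00657, without that replicate, to 0.109. Eif2ak3 (PERK) gave -0.41 (SE 0.19, adjusted p = 0.129) and was called without wild type replicate 4, at -0.58 (adjusted p = 0.0257, the lowest of a range up to 0.301). Xbp1 gave -0.04 (SE 0.13, adjusted p = 0.843) and Atf6 gave -0.16 (SE 0.14, adjusted p = 0.406). The other Atf6 probe sets gave 0.25 and 0.49, and the mean of all was 0.19 (adjusted p = 0.273, range 0.143 to 0.783). The direction of Atf6 thus rests on the probe set. The array measures mRNA level, so the splicing of Xbp1, the cleavage of ATF6 and the translation of ATF4 were not measured.

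In the ATF6 arm the called genes were Herpud1, Sdf2l1, Creld2, Pdia3 and Sel1l, all lower. Herpud1, an ER membrane protein that organises the degradation complex, read 12.49, 13.16, 12.92 and 12.20 in wild type and 11.82, 11.21, 11.37 and 11.30 in Atp7b-/-. The groups did not overlap, and the difference was -1.27 (SE 0.22, adjusted p = 0.000985), with -1.29 at its other probe set. Sdf2l1, a partner of ER chaperones, read 10.45, 10.82, 10.61 and 9.74 in wild type and 8.53, 8.12, 9.69 and 8.72 in Atp7b-/-. These groups were just apart, with wild type replicate 4 only slightly above mutant replicate 3, and the difference was -1.64 (SE 0.30, adjusted p = 0.00132). Both calls held under every alternative, with ranges of -1.43 to -1.11 for Herpud1 and -1.95 to -1.42 for Sdf2l1.

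Creld2, an ER stress-inducible secreted protein, read 10.55, 11.62, 10.87 and 9.35 in wild type and 7.81, 8.57, 10.15 and 9.22 in Atp7b-/-. Mutant replicate 3 lay above wild type replicate 4, and the spread was wide in both groups (means 10.60 ± 0.94 and 8.94 ± 0.99, SD, n = 4 each). The difference was -1.66 (SE 0.47, adjusted p = 0.0213), and without untreated replicate 1 it was -1.28 (adjusted p = 0.0552). The call was lost in 6 of 24 alternatives (adjusted p 0.00399 to 0.0729 over all). Besides leaving out untreated replicate 1, these included a trended robust variance and leaving out wild type replicate 2 or 3 or mutant replicate 2. Pdia3, a disulfide isomerase that works with calreticulin and calnexin on glycoproteins, fell by 0.37 (SE 0.09, adjusted p = 0.00998); as the mean of its 2 probe sets it was -0.23 (adjusted p = 0.0739, the highest of a range from 0.00334). Sel1l, the adaptor of the Hrd1 ubiquitin ligase, fell by 0.53 (SE 0.18, adjusted p = 0.042). The Sel1l call was lost in 13 of 24 alternatives, among them those without wild type replicate 1, 2 or 3, without Atp7b-/- replicate 1, 2 or 4, and without zinc-treated replicate 1 or 4, whereas the mean of its 5 probe sets gave -0.72 (adjusted p = 0.000276, the lowest of a range up to 0.114).

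The abundant chaperones of the same arm were not called. Hspa5 (BiP), the main Hsp70 chaperone of the ER, read 13.51, 14.01, 13.88 and 13.52 in wild type and 12.78, 13.56, 13.83 and 13.65 in Atp7b-/-. Mutant replicates 2, 3 and 4 lay within the wild type range and replicate 1 below it, and the difference was -0.27 (SE 0.19, adjusted p = 0.307). Hsp90b1 (GRP94) gave -0.02 (SE 0.14), the lectin chaperones Calr and Canx 0.04 (SE 0.07) and 0.07 (SE 0.08), and the isomerase Pdia4 -0.05 (SE 0.12). All of these overlapped between groups. At other probe sets Hsp90b1 gave -0.32, Pdia4 -0.44, Calr 0.02 and 0.02, and Canx -0.16 and 0.42. Averaged over its probe sets, Pdia4 gave -0.24 (adjusted p = 0.0781, the lowest of a range up to 0.997). The secreted factor Manf gave -0.62 (SE 0.27, adjusted p = 0.106). Without Atp7b-/- replicate 3 it was called at -0.86 (adjusted p = 0.0241, the lowest of a range up to 0.282). The chaperone Hyou1 gave -0.14 (SE 0.19, adjusted p = 0.594), with -0.21 and -0.94 at its other probe sets. Averaged over its probe sets, Hyou1 gave -0.43 (adjusted p = 0.097, the lowest of a range up to 0.98). The isomerase Pdia6 gave 0.23 (SE 0.10, adjusted p = 0.108), but its other probe set gave -1.19, and the mean of both was -0.48 with an adjusted p of 0.00696 (range 0.00696 to 0.377), so its direction rests on the probe set.

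The XBP1 arm gave 1 call. Dnajc3 (p58IPK), a co-chaperone that also inhibits PERK, read 11.47, 11.83, 11.70 and 11.29 in wild type and 11.03, 11.06, 11.37 and 10.89 in Atp7b-/-. Mutant replicate 3 lay above wild type replicate 4, and the difference was -0.49 (SE 0.12, adjusted p = 0.00998). As the mean of 5 probe sets it was -0.31 (adjusted p = 0.124, the highest over the alternatives, from 0.00304). Dnajb9 (ERdj4), which returns IRE1 to its resting state, gave -0.64 (SE 0.30, adjusted p = 0.137), and the mannosidase-like ERAD factor Edem1 gave 0.15 (SE 0.07, adjusted p = 0.149).

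In the wild type and untreated groups, the same array was often the highest or the lowest for many genes of the ER arms; this was not tested. Taken as the mean difference from the wild type mean, the 13 ATF6 arm genes stood at -0.09, 0.27, 0.12 and -0.30 on the wild type arrays, -0.81, -0.60, -0.11 and -0.40 on the Atp7b-/- arrays and -0.31, -0.20, -0.38 and -0.26 on the zinc-treated arrays. Wild type replicate 4 and Atp7b-/- replicate 3 crossed, so the arm means of these groups overlapped. Wild type replicate 2 was the highest of its group for 10 of the 13 genes and replicate 4 the lowest for 7, while Atp7b-/- replicate 1 was the lowest for 10 and replicate 3 the highest for 10. With zinc, replicate 2 was the highest for 7 and no array was the lowest for more than 5. The 3 XBP1 arm genes gave -0.11, 0.33, 0.10 and -0.32 in wild type, -0.65, -0.41, -0.04 and -0.20 in Atp7b-/- and -0.20, -0.20, -0.41 and -0.43 with zinc, with wild type replicate 2 highest for all 3 genes and replicate 4 lowest for all 3.

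The ATF4 arm did not share that order. Its 14 genes averaged -0.02, -0.06, 0.01 and 0.07 in wild type, 0.19, 0.02, 0.09 and 0.10 in Atp7b-/- and 0.28, 0.32, 0.11 and 0.25 with zinc. Without Asns, left out after its values were seen, the other genes averaged -0.03, -0.05, -0.01 and 0.10 in wild type, -0.02, -0.22, -0.15 and -0.12 in Atp7b-/- and 0.11, 0.14, -0.07 and 0.10 with zinc, so the mean of the untreated mutants turned from 0.10 ± 0.07 to -0.13 ± 0.08 (SD, n = 4 each). Macrophage markers ran in the order of the ATF6 arm in the wild type group (0.00, 0.41, 0.07 and -0.48) but not in Atp7b-/- (0.05, -0.95, -0.69 and -0.96), where replicate 1, the lowest for the ATF6 arm, was the highest for macrophage markers. Hepatocyte markers stayed within -0.10 and 0.04 on all arrays.

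**Figure D3:**
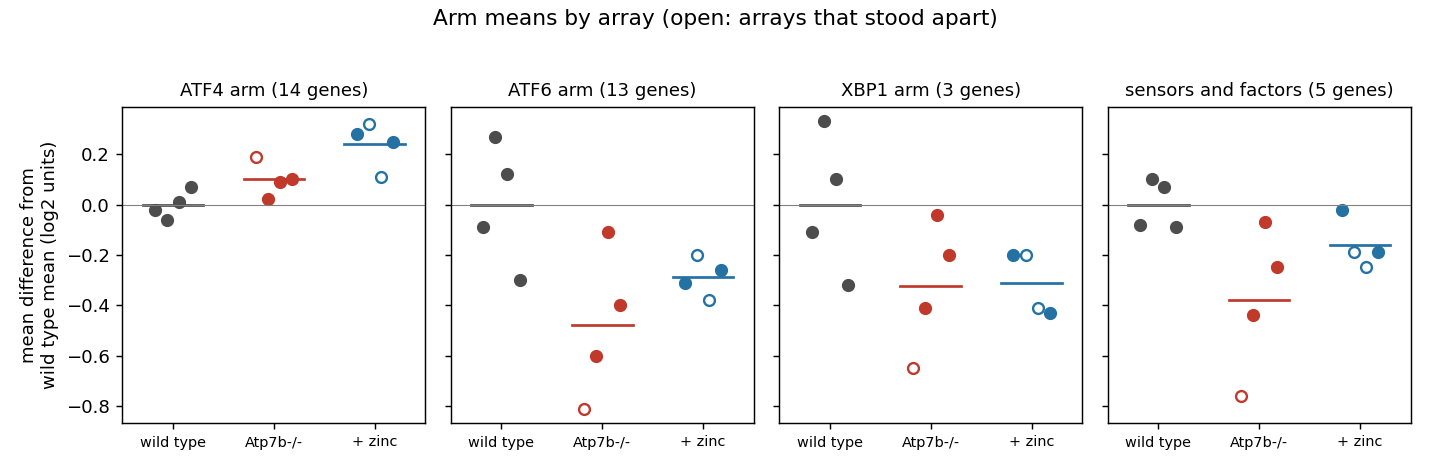
Mean difference from the wild type mean in log2 units (y axis) over the genes of each arm, for each array of the 3 groups (x axis); points are arrays, lines group means, and open points the 3 arrays that stood apart. The ATF6 arm spreads from -0.30 to 0.27 in wild type and from -0.81 to -0.11 in Atp7b-/-, and the ATF4 arm, Asns included, stays between -0.06 and 0.32 on all arrays; without Asns its mean in Atp7b-/- is -0.13.

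Zinc-treated and untreated Atp7b-/- livers differed in few of these genes: the stress protein Nupr1, the serine pathway enzyme Psat1 and the sensor Ern1 were higher with zinc, and Asns was lower. Of the 35 genes 4 were called, 3 higher and 1 lower, beside 6.54% of all genes called, 1.7% higher and 4.84% lower. Among all called genes 26.0% were higher, and 40.1% were after quantile normalization of the arrays. The groups did not overlap for 6 of the 35, beside 15.3% of all genes, and the median change was 0.15 against 0.01 over all genes. By arm, limma called 3 of 14 ATF4 arm genes (median 0.16), 1 of 5 sensors and factors (median 0.18), 0 of 13 ATF6 arm genes (median 0.14; 2 at an unadjusted p under 0.05) and 0 of 3 XBP1 arm genes (median -0.05; 0 at an unadjusted p under 0.05). Without zinc-treated replicates 2 and 3, 2 of the 35 were called, and without untreated replicate 1 the median was 0.02.

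Nupr1 read 6.40, 6.58, 6.92 and 6.76 in untreated and 7.47, 7.60, 7.17 and 7.32 in zinc-treated Atp7b-/-. Every zinc-treated array was above every array of the other 2 groups. The rise was 0.72 (SE 0.12, adjusted p = 0.00316), the other probe set gave 0.58, and the call held under every alternative (0.58 to 0.81). Nupr1 is strongly expressed in pancreatic acinar cells under stress. The zinc-treated arrays without acinar transcripts, replicates 1 and 4, read 7.47 and 7.32. The rise without replicates 2 and 3 was 0.73 (adjusted p = 0.0169, range 0.00102 to 0.0398), a fit in which the zinc-treated group rests on replicates 1 and 4 alone. The part of acinar transcripts in the rise was not tested.

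Asns read 10.92, 11.12, 10.83 and 10.62 with zinc, below all 4 untreated arrays and far above wild type. It fell by 0.58 (SE 0.14, adjusted p = 0.0251), and the adjusted p was 0.0111 to 0.0736 over the alternatives, of which 8 lost the call. Those were quantile normalization, leaving out zinc-treated replicate 1, 3 or 4 or untreated replicate 2, 3 or 4, and leaving out both arrays with acinar transcripts (-0.68, adjusted p = 0.052).

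Psat1 read 4.63 to 4.98 without and 4.90 to 5.29 with zinc, not far above the arrays' lower quartiles of 4.13 to 4.29, and rose by 0.38 (SE 0.10, adjusted p = 0.0406). Zinc-treated replicate 3 fell among the untreated arrays, and the call was lost in 12 of 23 alternatives, including those without zinc-treated replicate 1, 2 or 4, without untreated replicate 2, 3 or 4 and without wild type replicate 1 or 2 (adjusted p 0.00477 to 0.126). Ern1 read 10.82, 10.46, 10.72 and 10.55 with zinc, above all untreated arrays though mostly below wild type. It rose by 0.38 (SE 0.10, adjusted p = 0.0325), a call lost in 10 of 24 alternatives, among them those without zinc-treated replicate 1 or 3 or untreated replicate 1, 2 or 4 (adjusted p 0.0205 to 0.189).

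Apart from Ern1, the genes called lower in untreated mutants were not called in this comparison. Ddit3 read 7.25, 7.00, 7.10 and 7.23 with zinc, within the untreated range or just above it, and differed by 0.09 (SE 0.16, adjusted p = 0.79). Herpud1 gave 0.42 (SE 0.22, adjusted p = 0.295) and Creld2 0.30 (SE 0.47, adjusted p = 0.771). Sdf2l1 gave 0.69 (SE 0.30, adjusted p = 0.189) and was called at 1.00 (adjusted p = 0.0278, the lowest of a range up to 0.6) without untreated replicate 3. The arrays of Mthfd2, Phgdh and Psph did not overlap, zinc-treated being higher by 0.22 (SE 0.09, adjusted p = 0.171), 0.28 (SE 0.11, adjusted p = 0.169) and 0.31 (SE 0.12, adjusted p = 0.153), without a call. Psph was called when only the groups compared were fitted (adjusted p = 0.0381, the lowest of a range up to 0.426).

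Against wild type, zinc-treated Atp7b-/- liver kept the high Asns and the low Ddit3, and Nupr1 and Trib3 were higher. This comparison shares its wild type arrays with the first and its zinc-treated arrays with the second, so the values are set side by side without a test of their likeness. Of the 35 genes 6 were called, 4 higher and 2 lower, beside 7.62% of all genes called, 4.89% higher and 2.73% lower. The groups did not overlap for 6, beside 14.3% of all genes, and the median was -0.07 against -0.02 over all genes. By arm, 5 of 14 ATF4 arm genes (4 higher, 1 lower; median 0.19) and 1 of 13 ATF6 arm genes (lower; median -0.18) were called. Limma called 0 of 5 sensors and factors (median -0.23) and 0 of 3 XBP1 arm genes (median -0.25), each list with 1 gene at an unadjusted p under 0.05.

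Asns differed from wild type by 2.48 (SE 0.14, adjusted p = 1.17e-07), a 5.58-fold rise beside 8.33-fold without zinc. Ddit3 differed by -1.15 (SE 0.16, adjusted p = 0.000608), beside -1.24 without zinc. Nupr1 rose by 0.81 (SE 0.12, adjusted p = 0.000905), beside 0.09. These 3 calls held under every alternative, with the 4 arrays of each group apart.

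Trib3 read 6.74, 6.63, 6.40 and 5.99 with zinc, the last just under wild type replicate 4, and rose by 0.87 (SE 0.18, adjusted p = 0.0108). Without the arrays carrying acinar transcripts it was 0.79 (adjusted p = 0.104, range 0.00316 to 0.28), and the gene's other probe set differed by 0.24. Shmt2 read 11.44, 11.19, 10.98 and 11.40 with zinc and rose by 0.43 (SE 0.11, adjusted p = 0.0306), a call lost in 7 of 24 alternatives, among them those without wild type replicate 1, 2 or 3 or zinc-treated replicate 1, 2 or 4 (adjusted p 0.0102 to 0.0923). Herpud1 read 12.37, 11.82, 11.64 and 11.52 with zinc, the first within the wild type range, and fell by 0.85 (SE 0.22, adjusted p = 0.0303). That call was lost in 8 of 24 alternatives. Among them were a trended robust variance and leaving out wild type replicate 2 or 3 or zinc-treated replicate 2, 3 or 4. Without both arrays carrying acinar transcripts the difference was -0.75 (adjusted p = 0.197, the highest of a range from 0.0106).

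Sdf2l1 read 9.09, 9.71, 9.36 and 9.66 with zinc, just below all wild type arrays, and differed by -0.95 (SE 0.30, adjusted p = 0.0705), with a call in 3 alternatives (range 0.0199 to 0.189). Creld2 read 9.08, 9.64, 9.01 and 9.21, and differed by -1.36 (SE 0.47, adjusted p = 0.104), with a call without wild type replicate 4 (-1.78, adjusted p = 0.0216, the lowest of a range up to 0.254). Both zinc-treated groups were much tighter than the untreated ones, with SDs of 0.29 and 0.28 against 0.67 and 0.99. Ern1 and Mthfd2 gave -0.28 (SE 0.10, adjusted p = 0.0978) and -0.27 (SE 0.09, adjusted p = 0.0972).

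Other genes of the same pathways are given by counts and by up to 4 genes per list and comparison with the smallest adjusted p. These lists too were chosen by name with earlier results of these data known. Their shares beside those of all genes are thus a description and no test. Of 22 further ATF4 targets 10 (45.5%) were called in Atp7b-/- against wild type, 7 higher and 3 lower, beside the 24.6% of all genes. Ddit4 (REDD1), an inhibitor of mTORC1, read 7.67 to 8.18 in wild type, 9.09 to 9.75 in Atp7b-/- and 7.87 to 8.28 with zinc. It was thus high in the untreated mutants alone, rising by 1.43 (SE 0.15, adjusted p = 1.1e-05) and falling by 1.31 with zinc (SE 0.15, adjusted p = 0.000183). Cth, which makes cysteine from cystathionine, followed the same order: 12.63 to 12.89, 13.38 to 13.65 and 12.71 to 13.11, with differences of 0.80 (SE 0.10, adjusted p = 5.84e-05) and -0.59 (SE 0.10, adjusted p = 0.0031). Against wild type the zinc-treated group gave 0.12 for Ddit4 and 0.21 for Cth, neither called.

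Mthfd1l, a mitochondrial enzyme that yields formate, and the neutral amino acid carrier Slc1a4 rose by 1.11 (SE 0.20, adjusted p = 0.00122) and 0.53 (SE 0.10, adjusted p = 0.00134) without zinc. With zinc they were 0.82 (adjusted p = 0.0213) and 0.40 (adjusted p = 0.0216) above wild type, and without both arrays carrying acinar transcripts 0.63 (adjusted p = 0.196, the highest of a range from 0.00133) and 0.38 (adjusted p = 0.125, the highest of a range from 0.00219), which lost both calls. The genes Cebpb (1.05), Sesn2 (0.87) and Atf3 (0.86), named after their values were seen, were higher without zinc under every alternative. The 3 genes called lower, named after their values were seen, were the hepatokine Fgf21 (-1.91, SE 0.42, adjusted p = 0.00551), Cebpg, a partner of ATF4 (-0.41), and the cystine carrier Slc7a11 (-0.25). The last 2 were lost in 2 of 24 and 5 of 23 alternatives. Fgf21 spread widely in wild type (6.67, 7.05, 7.30 and 9.12, SD 1.09) and read 5.44 to 5.83, near the array medians, in Atp7b-/-. Its difference ranged from -2.19 to -1.38 over the alternatives, all of which kept the call. In zinc-treated against untreated Atp7b-/-, 4 of the 22 (18.2%, beside 6.54% of all genes) were called, all lower: Ddit4, Cth, the stress factor Atf3 (-0.93, adjusted p = 0.0126) and the alanine aminotransferase Gpt2 (-0.75, adjusted p = 0.0222). Without both arrays carrying acinar transcripts the Atf3 and Gpt2 calls were lost at differences of -0.85 (adjusted p = 0.111, range 0.00127 to 0.148) and -0.68 (adjusted p = 0.16, the highest of a range from 0.000923). Against wild type, 3 (13.6%, beside 7.62% of all genes) were called with zinc, Mthfd1l and Slc1a4 higher and Gpt2 lower by 0.65, the last lost in 10 of 24 alternatives.

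Of 13 tRNA synthetase genes, a list that includes the tRNA exporter Xpot, 3 (23.1%, near the 24.6% of all genes) were called in Atp7b-/-, all higher: Gars (0.56, adjusted p = 0.000383), Lars (0.31) and Cars (0.39), the last lost in 15 of 24 alternatives. Gars fell by 0.35 with zinc (adjusted p = 0.0279), a call lost in 9 of 24 alternatives, and limma called 0 of the 13 against wild type with zinc (3 at an unadjusted p under 0.05). Of 5 eIF2alpha kinase and phosphatase genes and related factors 1 (20%) was called in Atp7b-/-, the exchange factor subunit Eif2b5 (0.23), lost in 11 of 24 alternatives. Of 8 ER membrane factors 2 (25%) were called, both higher: Mbtps2, the site-2 protease that cleaves ATF6 (0.45, adjusted p = 0.00175), and Atf6b (0.36), lost in 13 of 24 alternatives. The shares of these 3 lists lie near that of all genes and are no result about the lists.

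The degradation and folding lists were split. Of 14 further ERAD genes 5 (35.7%, beside 24.6% of all genes) were called in Atp7b-/-. The ATPase Vcp rose by 0.59 (SE 0.09, adjusted p = 0.000404), its cofactor Ufd1 by 0.53 (SE 0.11, adjusted p = 0.00264) and the channel protein Derl1 by 0.66 (SE 0.15, adjusted p = 0.0055). The Derl1 call was lost, at 0.15 (adjusted p = 0.299, the highest of a range from 0.00174), when probe sets that may match several transcripts were left out. Derl3, an ER stress-inducible relative of Derl1, fell by 0.69 (SE 0.10, adjusted p = 0.000216) and, named after its value was seen, the ligase Syvn1 (Hrd1) fell by 0.90 (SE 0.29, adjusted p = 0.0379). The last call was lost without untreated replicate 1 and in 8 other alternatives.

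Of 21 further folding genes 4 (19%, under the 24.6% of all genes) were called, 3 lower: the oxidase Ero1b (-0.64, adjusted p = 0.00176), the isomerase Txndc5 (-0.48, adjusted p = 0.0063) and the co-chaperone Dnajb11 (-0.41), while the BiP exchange factor Sil1 rose by 0.54 (adjusted p = 0.00642). Ero1b and Txndc5 were higher with zinc than without, by 0.54 (adjusted p = 0.0172) and 0.41 (adjusted p = 0.0406), but the calls were lost without both arrays carrying acinar transcripts, at 0.51 (adjusted p = 0.118, range 0.00675 to 0.352) and 0.47 (adjusted p = 0.107, range 0.0115 to 0.156). Of 21 translocon and secretory genes 4 (19% again) were called in Atp7b-/-: Sec63 (-0.39, adjusted p = 0.00648) and Ssr4 (-0.37) lower, Kdelr2 (0.26) and Sec31a (0.33) higher, the last 2 lost in 8 and 13 of 24 alternatives.

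For these last 5 lists, the calls with zinc are given beside the shares of all genes. Between the mutant groups 1 of 14 ERAD genes (7.14%) and 2 of 21 folding genes (9.52%) were called, beside 6.54% of all genes. Against wild type with zinc 2 of 14 ERAD genes (14.3%) and 1 of 21 translocon and secretory genes (4.76%) were called, beside 7.62% of all genes. Counts this small are no result about the lists. Between the mutant groups the lectin Os9 of the ERAD list was lower by 0.27 (adjusted p = 0.0462), a call lost in 18 of 24 alternatives, and limma called 0 translocon and secretory genes, 0 ER membrane factors and 0 eIF2alpha genes (1 of each list at an unadjusted p under 0.05). Against wild type with zinc, Derl3 was lower by 0.43 (adjusted p = 0.0159), Ufd1 higher by 0.41 (adjusted p = 0.0325) and Sec63 lower by 0.37 (adjusted p = 0.0229). These calls were lost in 4, 7 and 9 of 24 alternatives. Without both arrays carrying acinar transcripts Derl3 and Sec63 gave -0.42 (adjusted p = 0.11, the highest of a range from 0.00914) and -0.28 (adjusted p = 0.203, the highest of a range from 0.00354) and lost their calls, and the mean of the Ufd1 probe sets gave 0.20 (adjusted p = 0.287, the highest of a range from 0.0149). In that comparison limma called 0 of the 21 folding genes, 0 of the 8 membrane factors and 0 of the 5 eIF2alpha genes (3, 2 and 0 at an unadjusted p under 0.05).

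**Figure D4:**
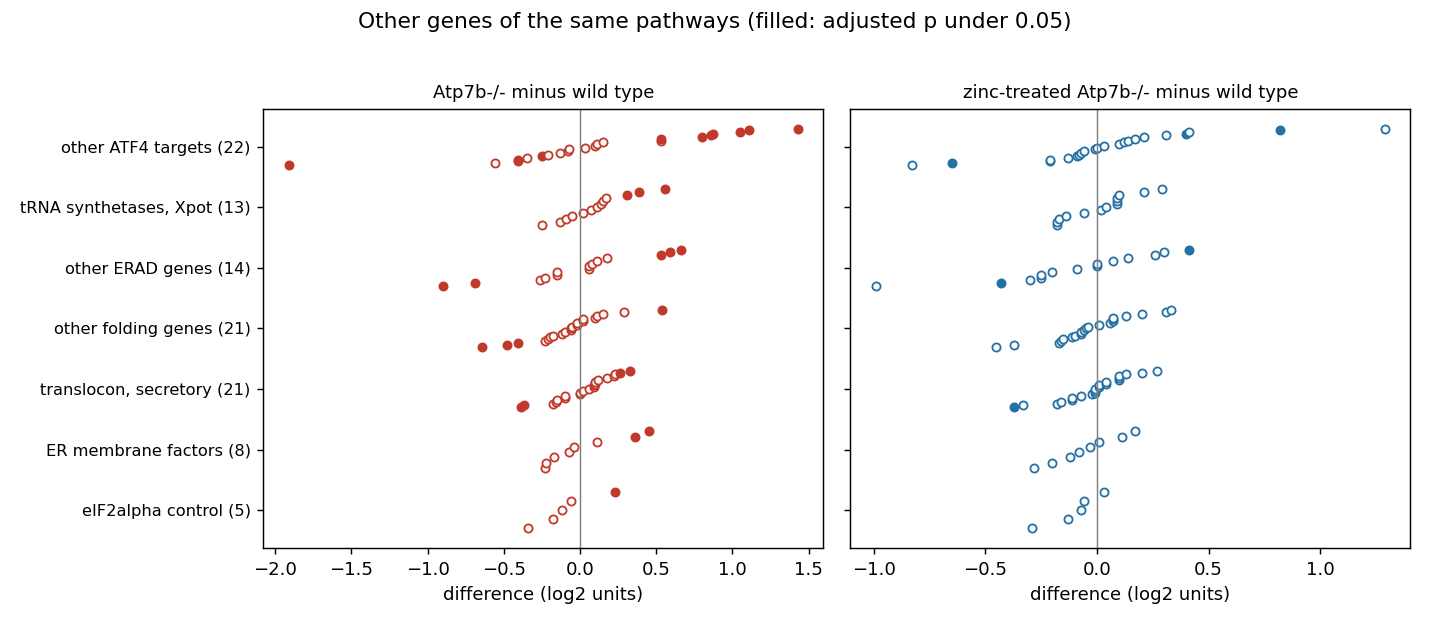
Difference from wild type in log2 units (x axis) of the other genes of these pathways, by list with the number measured (y axis), for untreated (left) and zinc-treated (right) Atp7b-/- liver; each point is a gene and filled points have an adjusted p under 0.05. Among the further ATF4 targets Ddit4 (1.43) and Fgf21 (-1.91) are the outermost filled points on the left, and both are unfilled on the right.

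Set against the promoters shown above, the ER stress element occurred both in genes that fell in Atp7b-/- and in genes that were not called. Creld2 (-1.66) and Dnajc3 (-0.49) carry it and were called, while Hspa5, Hsp90b1, Calr, Canx and Pdia6 carry it and were not. Sdf2l1, Sel1l and Pdia3 were called without a match in the window. The C/EBP-ATF element likewise occurred in Asns (3.06) and Trib3 (0.56), which rose, in Nupr1 and Chac1, which were not called in Atp7b-/-, and in Herpud1, which fell. Ddit3, Shmt2, Mthfd2 and Phgdh were called without a match.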

How the data were processed

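Liver RNA was measured on 12 arrays in 3 groups of 4, per the labels. The values used are the deposited log2 intensities of 45101 probe sets from the series' value table; how the authors corrected background and normalized was not given in the sources used here. That the scale is log2 was read from the range of the deposited values. No depth applies to arrays; the number of arrays limits the precision. Probe sets were named through the platform annotation (34945 with 1 gene, 932 with several, 9160 with none, 64 controls), and the probe set with the highest mean stood for each of 18193 genes.

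Differences were fitted over all 12 arrays with limma 3.58.1 (R 4.3.3; lmFit and eBayes), adjusted by the Benjamini-Hochberg method per comparison, and the script was tested on simulated data. All 35 genes are named; of the other lists, up to 4 called genes per comparison with the smallest adjusted p, and 3 of the brightest markers per list. The genes and lists were chosen with earlier results of these data known. The alternatives were quantile normalization, median centring, other probe set rules, a filter on dim genes, other variance models, array weights, fewer groups, the replicate number as a block, a minimum change of 0.5, and leaving out each array or the arrays that stood apart. Their use on the other pathway genes was chosen after seeing the data. Promoter sequences are from RefSeq (GRCm38.p6).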

Additional observations from a re-analysis of the deposited data

Results flagged for a closer look

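Of the 105 sets of 4 arrays examined (35 genes in 3 groups), 6 held an array whose gap to the rest exceeded Dixon's limit for 4 values, and chance gives about 1 in 20. In 3 of the 6, untreated Atp7b-/- replicate 1 was the lowest: Hsp90b1 read 12.61 against 13.05 to 13.12, Xbp1 read 12.43 against 12.97 to 13.06, and Calr read 13.28 against 13.41 to 13.43. Hspa5 read 13.71 in zinc-treated replicate 2 against 13.49 to 13.50 on the other 3 arrays; this array had the highest level of pancreatic acinar transcripts, whose part in the value was not tested. Phgdh read 8.36 in zinc-treated replicate 3, which also carried acinar transcripts, against 7.94 to 7.96. Calr read 13.43 in wild type replicate 3 against 13.32 to 13.33.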

How the results depend on the processing

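Of the 24 called values of the 35 genes, 10 stayed called under all 24 alternatives: Asns, Ddit3, Shmt2, Herpud1, Ern1 and Sdf2l1 in Atp7b-/- against wild type, Nupr1 with against without zinc, and Asns, Ddit3 and Nupr1 with zinc against wild type. Of 2514 recomputed values, 2382 kept their side of the threshold, but 93 of these, uncalled both times, changed sign. Among values called at least once, 1 turned, Pdia6, which gave -0.48 when its probe sets were averaged. Of 45 called values of the other pathway genes and Atp7b, 18 stayed called. Requiring a change of 0.5 left, in Atp7b-/- against wild type, 4 of the ATF4 arm, 9 of the 35 and 1981 of all genes, 2 of the 35 and 657 of all genes with against without zinc, and 799 genes with zinc against wild type. Quantile normalization left 1 ATF4 arm gene and 2 of the 35 with against without zinc, and array weights raised that comparison to 1861 genes. The ATF6 arm with zinc against wild type gave 0 calls with a trended robust variance and 2 with the mean of probe sets or only the groups compared. Without the arrays carrying acinar transcripts that arm gave 0 and all genes 699, and zinc against no zinc gave 2 of the 35 and 614 of all genes. Without untreated replicate 1 as well, the ATF6 arm gave 3 calls in Atp7b-/- against wild type and 0 with zinc against wild type, with 598 genes called between the mutant groups and 881 with zinc against wild type. Leaving out each array in turn gave, in Atp7b-/- against wild type, 4 to 7 ATF4 arm genes, 3 to 6 ATF6 arm genes and 9 to 15 of the 35. It gave 1 to 3, 0 to 2 and 1 to 4 between the mutant groups, with 689 to 1158 of all genes, and 0 to 3 ATF6 arm genes with zinc against wild type. The labels do not say that replicate numbers pair the arrays. Same-number correlations of deviations ran from -0.13 to 0.237, but those of unlike numbers were not computed, so pairing cannot be judged from them. With the number as a replicate block 13, 4 and 6 of the 35 and 4449, 1171 and 1353 of all genes were called in the 3 comparisons. The precision rests on 4 arrays a group. Psat1 and Slc7a11 lie below the array medians, and so do wild type replicates 1, 2 and 3 for Trib3 and 1 and 2 for Atf3. The filter on dim genes dropped all of these genes.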
